A study of Mus musculus with 84 samples.

Results

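The genes described here are the 3 PIM kinase genes (Pim1, Pim2 and Pim3) and 7 genes of the BCL2 family (Mcl1, Bcl2, Bcl2l1, Bcl2l11, Bbc3, Bax and Bak1), 10 of 55471 genes counted. They were listed by name and chosen by the bulk read counts of these libraries, because Pim2 stood high in the library with the more active IL-4 receptor and low in the library without the receptor. Their ratios between those libraries therefore describe these RNA samples and are given without any test.

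MMC9s, mast cells of the allergic small intestine that secrete IL-9, were profiled by bulk RNA-seq in 3 genotypes on the BALB/c background, with 1 library each. IL-4RaY709F carries a gain-of-function IL-4 receptor alpha chain in which the tyrosine of an inhibitory motif is replaced, IL-4Ra-/- lacks the chain, and WT has the normal one. In all 3 groups the hosts were WT mice sensitized to ovalbumin that had received bone marrow progenitors of the given genotype and then 7 oral ovalbumin challenges at 3 per week, and RNA was pooled from 12 to 20 biological replicates. A further 81 single MMC9s came from WT mice allergic to ovalbumin given with alum. The sort took lineage-negative cells with a high IL-4GFP signal that bore c-Kit and ST2, had little β7-integrin and did not stain for IL-17RB2. No label states how MMC9s of the host were kept apart from those of the transferred progenitors, how old the mice were or which animals gave the single cells, so the cells count as 1 sample. With 1 library a genotype, the spread between mice is unknown and no p-value is given. Each interval below is a 95% interval that covers counting error only.

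PIM kinases are serine/threonine kinases that need no activating phosphorylation, so their activity follows their amount, and cytokine receptors raise their transcripts through JAK kinases and STAT factors. They phosphorylate BAD and other proteins and so favour survival and growth. In the BCL2 family, MCL1, BCL2 and BCL-XL hold in check the pore formers BAX and BAK, which breach the outer mitochondrial membrane, while BH3-only proteins such as BIM and PUMA release that check. In mouse mast cells, loss of growth factor raises BIM.

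The promoters of the PIM kinase genes are shown because all 3 genes were lowest in IL-4Ra-/-, and the surroundings of a start inside the Bcl2l1 gene are shown for their 1 motif match. The windows are RefSeq promoters of GRCm38.p6, each running 5′ to 3′ on the strand of its gene from 250 bases before to 50 after a transcript start: chr17:29490535-29490834 (plus strand) for Pim1, chrX:7878056-7878355 (plus) for Pim2 and chr15:88861944-88862243 (plus) for Pim3. The Bcl2l1 stretch is chr2:152828474-152828503 (minus). Capitals mark matches to the motifs searched.

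Pim1 promoter: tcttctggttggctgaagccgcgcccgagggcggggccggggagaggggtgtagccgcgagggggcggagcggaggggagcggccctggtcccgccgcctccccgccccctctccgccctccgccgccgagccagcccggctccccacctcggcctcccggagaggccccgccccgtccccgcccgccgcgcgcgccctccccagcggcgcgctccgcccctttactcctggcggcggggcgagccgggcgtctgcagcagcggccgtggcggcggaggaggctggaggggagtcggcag

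Pim2 promoter: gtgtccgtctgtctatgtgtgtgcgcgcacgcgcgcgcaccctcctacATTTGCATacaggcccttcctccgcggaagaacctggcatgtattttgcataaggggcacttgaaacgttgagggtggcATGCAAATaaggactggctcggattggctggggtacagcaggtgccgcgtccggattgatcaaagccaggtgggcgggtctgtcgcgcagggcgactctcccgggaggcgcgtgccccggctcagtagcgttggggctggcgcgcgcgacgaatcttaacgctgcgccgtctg

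Pim3 promoter: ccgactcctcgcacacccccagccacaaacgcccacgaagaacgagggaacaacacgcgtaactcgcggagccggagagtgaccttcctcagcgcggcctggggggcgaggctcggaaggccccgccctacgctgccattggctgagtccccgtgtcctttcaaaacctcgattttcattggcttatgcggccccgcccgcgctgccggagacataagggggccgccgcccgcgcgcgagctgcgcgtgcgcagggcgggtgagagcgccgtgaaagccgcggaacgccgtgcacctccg

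Bcl2l1, internal start: tgagtgctttTTCTTCAGAAtcctgctcgc

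The motifs were searched on both strands in all 32851 promoter windows of that table, 16 of which belong to the 10 genes. The STAT5-type spacing TTCNNNGAA was in none of those 16 windows and in 8.30% of all windows. The STAT6-type spacing, TTC and GAA with 4 free bases between them, was in 1 of the 16, the Bcl2l1 window, where the match began 4 bases before that transcript start, and in 6.95% of all windows. TGANTCA, the AP-1 site to which BATF dimers bind, was in none of the 16 and in 7.81% of all. The octamer ATTTGCAT, searched after the Pim2 sequence had been seen, was in the Pim2 window in 2 places, 202 and 123 bases before the start, the second one reading ATGCAAAT on the printed strand. It was in 1.74% of all windows, and 0.107% held 2 or more copies. None of these 4 motifs overlaps another in the printed windows. A match is a run of letters and not a measured binding site, and windows without one say nothing of the factor.

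The libraries held 2521791 (IL-4RaY709F), 2330628 (IL-4Ra-/-) and 2299793 (WT) reads in genes, so that 3 reads corresponded to 1.18 to 1.31 reads scaled to a common total (CPM). Levels are CPM scaled by the trimmed mean of M-values (TMM). A ratio passed the size rule when the larger library had at least 50 reads, the ratio was at least 2-fold and its interval excluded equal levels. The 14 mast cell markers were each present in at least 20% of the single cells, and they summed to 104154 CPM in IL-4RaY709F, 68673 CPM in IL-4Ra-/- and 73238 CPM in WT, with no marker at 0. Il4ra, the receptor gene itself, had 787 CPM in IL-4RaY709F, 138 CPM in IL-4Ra-/- and 353 CPM in WT. The reads left in the IL-4Ra-/- library could not be placed within or outside a deleted part of the gene from counts per gene.

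Pim2 had the widest range among the genotypes. Pim2 (ENSMUSG00000031155, GRCm38 chromosome X, 7878262 to 7883432, plus strand) had 209.8 CPM in IL-4RaY709F (488 reads), 18.1 CPM in IL-4Ra-/- (46 reads) and 55.1 CPM in WT (126 reads). The counting intervals, 191.6 to 229 CPM in IL-4RaY709F, 13.2 to 24.1 CPM in IL-4Ra-/- and 45.9 to 65.6 CPM in WT, lay apart. Pim2 was 3.81-fold higher in IL-4RaY709F than in WT (3.12 to 4.67), 3.05-fold lower in IL-4Ra-/- than in WT (2.16 to 4.37) and 11.6-fold higher in IL-4RaY709F than in IL-4Ra-/- (8.56 to 16.1). These are the values for which the gene set was chosen. In a bulk library, a larger share of cells with the transcript and more transcript per cell cannot be told apart.

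Pim1 and Pim3 were likewise lowest in IL-4Ra-/-, over narrower ranges. Pim1 (ENSMUSG00000024014, chromosome 17, 29490753 to 29496112, plus strand), the family member first known as a target of retroviral insertion in mouse lymphomas, had 1074 CPM in IL-4RaY709F (2497 reads), 593 CPM in IL-4Ra-/- (1507 reads) and 889.99 CPM in WT (2034 reads). Its log2 ratio was 0.27 for IL-4RaY709F over WT (0.19 to 0.36) and -0.59 for IL-4Ra-/- over WT (-0.68 to -0.49). Both intervals excluded 0, and neither ratio reached 2-fold. Pim3 (ENSMUSG00000035828, chromosome 15, 88862186 to 88865726, plus strand) had 208 CPM in IL-4RaY709F (483 reads), 101.5 CPM in IL-4Ra-/- (258 reads) and 197 CPM in WT (450 reads). IL-4RaY709F and WT overlapped in their intervals for Pim3, with a log2 ratio of 0.08 (-0.11 to 0.26) that became -0.03 under scaling by total reads, and IL-4Ra-/- lay below both. The log2 ratio of Pim3 in IL-4Ra-/- over WT was -0.96 (-1.18 to -0.73), just outside the 2-fold limit, and Pim2 at -1.61 was the nearest gene of the set inside it.

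Per kilobase of exon, the PIM kinase transcripts together came to 480.0 CPM per kb in IL-4RaY709F, 225 CPM per kb in IL-4Ra-/- and 366 CPM per kb in WT. Pim1 was the most abundant of the 3 in every library, with 66.5% of that sum in IL-4RaY709F, 78.5% in IL-4Ra-/- and 72.4% in WT. Pim2 made up 15.6% in IL-4RaY709F, 2.88% in IL-4Ra-/- and 5.40% in WT. As a share of PIM kinase reads with no length correction, Pim2 was 14.1% in IL-4RaY709F (exact binomial interval 12.9% to 15.3%), 2.54% in IL-4Ra-/- (1.87% to 3.37%) and 4.83% in WT (4.04% to 5.72%), and these 3 intervals lay apart. The shares restate the Pim2 counts for which the gene set was chosen, so their separation is no further observation. In IL-4RaY709F the per-length level of Pim2 reached 75.1 CPM per kb (68.6 to 82.0), next to 85.6 CPM per kb for Pim3 (78.1 to 93.5), with overlapping intervals. In WT the same pair stood at 19.7 (16.4 to 23.5) and 81.1 CPM per kb (73.8 to 89.0).

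**Figure D1:**
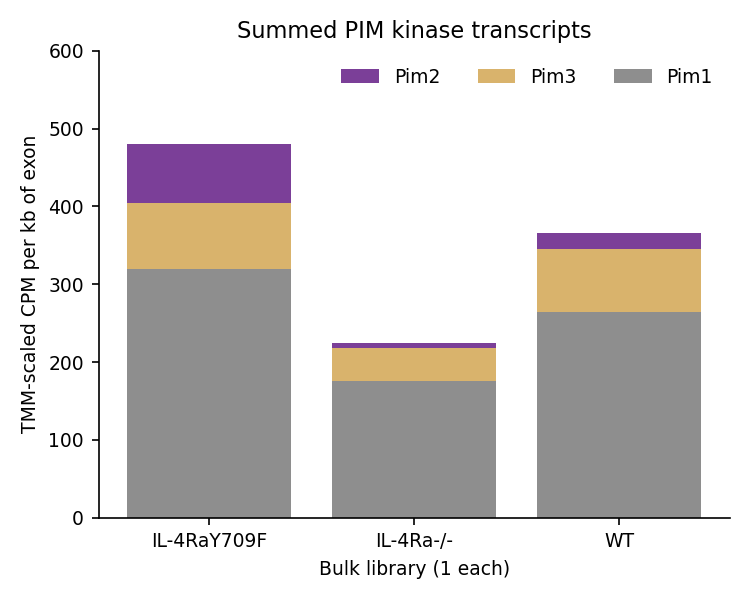
Stacked bars give the PIM kinase transcripts of each bulk library in TMM-scaled CPM per kb of exon, with IL-4RaY709F, IL-4Ra-/- and WT from left to right and 1 library each. The Pim2 segment is 15.6% of the bar in IL-4RaY709F, 2.88% in IL-4Ra-/- and 5.40% in WT.

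Among the anti-apoptotic genes, Bcl2l1 varied most and Mcl1 was the most abundant. Mcl1 (ENSMUSG00000038612, chromosome 3, 95658788 to 95663176, plus strand), which encodes a short-lived protein that binds BIM and BAK, had 708 CPM in IL-4RaY709F (1646 reads), 558 CPM in IL-4Ra-/- (1419 reads) and 685 CPM in WT (1565 reads). IL-4RaY709F and WT overlapped, at a log2 ratio of 0.05 (-0.05 to 0.15) that became -0.06 under total reads, and IL-4Ra-/- over WT was -0.30 (-0.40 to -0.19). Bcl2l1 (ENSMUSG00000007659, chromosome 2, 152780668 to 152831728, minus strand), the gene of BCL-XL, had 49.9 CPM in IL-4RaY709F (116 reads), 23.2 CPM in IL-4Ra-/- (59 reads) and 33.7 CPM in WT (77 reads). Its log2 ratio was 0.57 for IL-4RaY709F over WT (0.14 to 1.0) and -0.54 for IL-4Ra-/- over WT (-1.05 to -0.03), and the per-library intervals of WT overlapped those of both mutants. Bcl2 (ENSMUSG00000057329, chromosome 1, 106538178 to 106714274, minus strand), the founding member of the family, had 87.7 CPM in IL-4RaY709F (204 reads), 68.4 CPM in IL-4Ra-/- (174 reads) and 75.7 CPM in WT (173 reads). For Bcl2 the intervals of the log2 ratios, 0.21 for IL-4RaY709F over WT (-0.09 to 0.51) and -0.15 for IL-4Ra-/- over WT (-0.46 to 0.17), included 0.

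Among the pro-apoptotic genes, the BH3-only gene Bcl2l11 was lowest in WT and Bbc3 highest in WT, while the pore formers Bax and Bak1 overlapped in all 3 libraries. Bcl2l11 (ENSMUSG00000027381, chromosome 2, 128126038 to 128162547, plus strand), which encodes BIM, had 86.0 CPM in IL-4RaY709F (200 reads), 69.2 CPM in IL-4Ra-/- (176 reads) and 62.1 CPM in WT (142 reads). It was the gene of the 10 whose WT level was below that of both mutants, with a log2 ratio of 0.47 for IL-4RaY709F over WT (0.15 to 0.79) and 0.16 for IL-4Ra-/- over WT (-0.17 to 0.49). Bbc3 (ENSMUSG00000002083, chromosome 7, 16308393 to 16318205, plus strand), the gene of the p53 target PUMA, had its highest level in WT, at 18.5 CPM in IL-4RaY709F (43 reads), 16.5 CPM in IL-4Ra-/- (42 reads) and 25.8 CPM in WT (59 reads). Its log2 ratio was -0.48 for IL-4RaY709F over WT (-1.08 to 0.11) and -0.64 for IL-4Ra-/- over WT (-1.25 to -0.05). Under total reads, WT was also the highest library for Pim3, Mcl1, Bax and Bak1. Bax (ENSMUSG00000003873, chromosome 7, 45461697 to 45466898, minus strand) had 32.7 CPM in IL-4RaY709F (76 reads), 26.7 CPM in IL-4Ra-/- (68 reads) and 31.1 CPM in WT (71 reads). Bak1 (ENSMUSG00000057789, chromosome 17, 27019810 to 27029009, minus strand) had 53.3 CPM in IL-4RaY709F (124 reads), 48 CPM in IL-4Ra-/- (122 reads) and 52.9 CPM in WT (121 reads). For both pore formers the intervals of all 3 libraries overlapped, and the log2 ratios of IL-4RaY709F over WT, 0.07 for Bax and 0.01 for Bak1, turned to -0.03 and -0.10 under total reads.

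**Figure D2:**
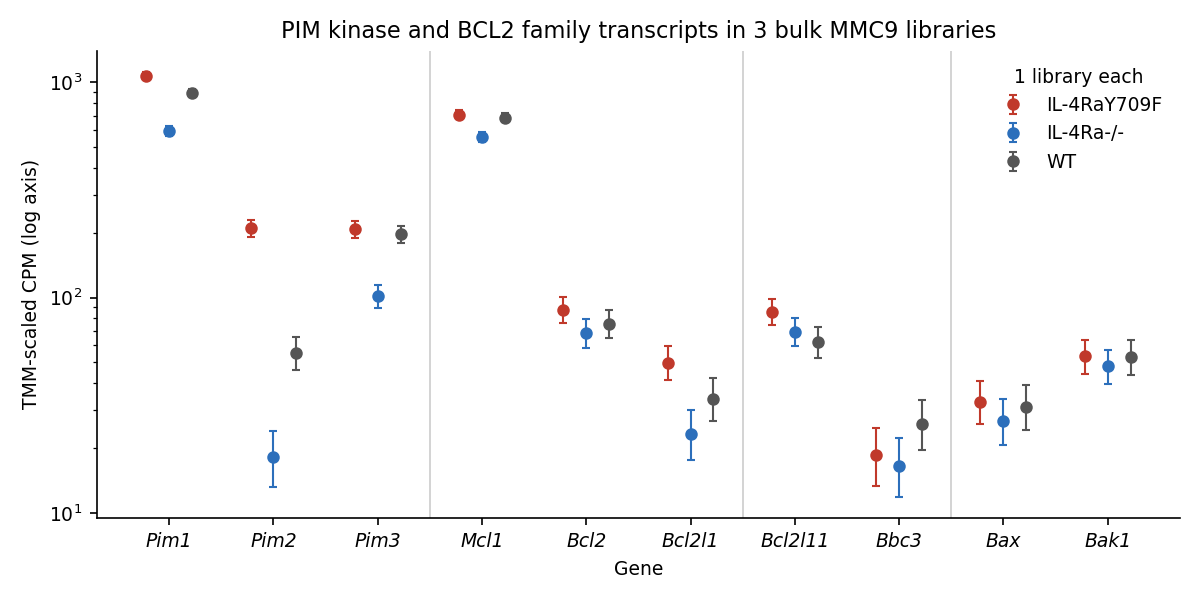
Points give the level of each of the 10 genes in TMM-scaled CPM on a log axis, with IL-4RaY709F, IL-4Ra-/- and WT from left to right within a gene, 1 library each, and bars for the 95% counting interval. Pim2 stands at 209.8 CPM in IL-4RaY709F, 18.1 CPM in IL-4Ra-/- and 55.1 CPM in WT, and Bax and Bak1 overlap in all 3 libraries.

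Compared per kilobase of exon, WT MMC9s had most Pim1 (265 CPM per kb, 253 to 276), then Mcl1 (200.3, 190.5 to 210.5) and Pim3 (81.1, 73.8 to 89.0), and these 3 did not overlap. Bak1 (22, 18.3 to 26.3), Pim2 (19.7, 16.4 to 23.5) and Bax (19.7, 15.4 to 24.9) formed an overlapping group. Bbc3 (12.2, 9.25 to 15.7), Bcl2 (8.27, 7.08 to 9.59), Bcl2l11 (7.74, 6.52 to 9.12) and Bcl2l1 (7.35, 5.80 to 9.18) came last, with neighbours overlapping. In IL-4RaY709F, Pim2 at 75.1 CPM per kb took the place after Pim3, and in IL-4Ra-/- its 6.47 CPM per kb (4.74 to 8.63) lay between Bcl2l1 and Bcl2 and overlapped Bcl2, Bcl2l11, Bbc3 and Bcl2l1.

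The summed anti-apoptotic level (Mcl1, Bcl2 and Bcl2l1, per kb) divided by the summed pro-apoptotic level (Bcl2l11, Bbc3, Bax and Bak1) was 3.65 in IL-4RaY709F (3.25 to 4.11), 3.30 in IL-4Ra-/- (2.92 to 3.73) and 3.51 in WT (3.10 to 3.96). These 3 intervals, from the delta method on the counts, overlapped. The level of Mcl1 per kb over that of Bcl2l11 was 19.3 in IL-4RaY709F (16.7 to 22.5), 18.9 in IL-4Ra-/- (16.2 to 22.3) and 25.9 in WT (21.8 to 31). The size of this ratio rests on the exon lengths used, 3418 bases for Mcl1 and 8029 for Bcl2l11. Without length correction, WT had 1565 reads for Mcl1 and 142 for Bcl2l11. For this ratio the interval of WT overlapped that of both mutants at its lower end. Such an overlap does not show that the ratios are alike, and no interval of their difference was computed. Transcript ratios do not give the ratios of the proteins, which were not measured.

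Over all genes, 2.45% of the 5964 tested passed the size rule for IL-4RaY709F over WT, 100 higher (1.68%) and 46 lower (0.771%), and scaling by total reads gave 71 higher and 69 lower. Of the 10 genes, 1 passed, Pim2, which ranked 18 from the top. For IL-4Ra-/- over WT, 3.73% of 6246 genes passed, 152 higher (2.43%) and 81 lower (1.30%), against 207 higher and 45 lower under total reads. Again 1 of the 10 passed, Pim2, which ranked 12 from the bottom. Since the set was built around Pim2 in these contrasts, nothing is read from either count or from the medians that follow. The median log2 ratio of the 10 genes was 0.14 for IL-4RaY709F over WT, against 0.02 for all genes tested, and -0.42 for IL-4Ra-/- over WT, against -0.08 for all. Scaling by total reads in place of TMM shifted every log2 ratio by -0.11 in the first of these comparisons and by 0.13 in the second.

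**Figure D3:**
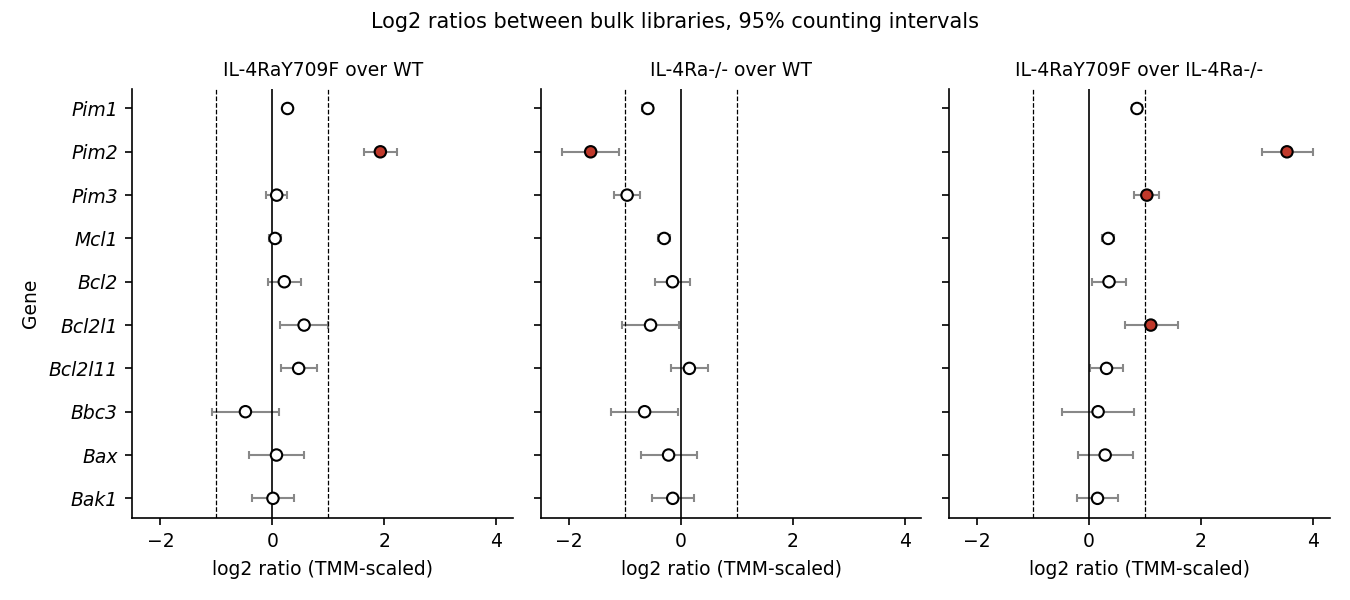
Points give the log2 ratio of each of the 10 genes in the 3 comparisons, IL-4RaY709F over WT, IL-4Ra-/- over WT and IL-4RaY709F over IL-4Ra-/-, with bars for the 95% counting interval, dashed lines at 2-fold and filled points for genes past the size rule. Pim2 stands at 1.93 for IL-4RaY709F over WT, -1.61 for IL-4Ra-/- over WT and 3.54 for IL-4RaY709F over IL-4Ra-/-. In this last comparison every point lies above 0, though total reads turn Bak1 to -0.09 and Bbc3 to -0.08.

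Between the mutants, 8.12% of 6319 genes passed, 292 higher in IL-4RaY709F (4.62%) and 221 lower (3.50%), and total reads gave 145 higher and 359 lower. Of the 10 genes 9 had enough reads, and 3 passed, all higher in IL-4RaY709F: Pim2 at a log2 ratio of 3.54 (3.10 to 4.01), Bcl2l1 at 1.10 (0.64 to 1.58) and Pim3 at 1.03 (0.81 to 1.26). Under total reads Bcl2l1 stood at 0.86 and Pim3 at 0.79 and no longer passed, while Pim2 did. Pim1 was at 0.86 (0.76 to 0.95), Bcl2 at 0.36 (0.06 to 0.66), Mcl1 at 0.34 (0.24 to 0.45) and Bcl2l11 at 0.31 (0.01 to 0.61). The intervals of Bax (0.29, -0.20 to 0.78) and Bak1 (0.15, -0.22 to 0.53) included 0. The untested Bbc3, with 43 reads in IL-4RaY709F and 42 in IL-4Ra-/-, stood at 0.16 (-0.49 to 0.81), and total reads, which lowered each ratio by 0.24, turned Bak1 to -0.09 and Bbc3 to -0.08. The comparison shares both mutant libraries with the comparisons above, so it is no separate observation.

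Markers of other cell types differed in level among these libraries. Of 13 macrophage or monocyte markers, 9 were testable and 8 higher in IL-4Ra-/- than in WT, and the 11 of them seen in under 5% of single cells summed to 84.3 CPM in IL-4RaY709F, 543 CPM in IL-4Ra-/- and 163 CPM in WT, with none at 0. Markers likewise rare in the single cells summed to 50.3 CPM in IL-4RaY709F, 147 CPM in IL-4Ra-/- and 55.6 CPM in WT for dendritic cells (6 of 9 genes), and to 20.2 CPM in IL-4RaY709F, 79.4 CPM in IL-4Ra-/- and 14.4 CPM in WT for epithelium (11 of 12). For B or plasma cells, the 6 rare markers of 13 summed to 42.1 CPM in IL-4RaY709F, 162 CPM in IL-4Ra-/- and 231 CPM in WT. Most of this came from the single gene Iglc1, at 33.5 CPM in IL-4RaY709F, 141 CPM in IL-4Ra-/- and 217 CPM in WT. The whole list of 13 was instead highest in IL-4Ra-/-, with 3218 CPM in IL-4RaY709F, 13665 CPM in IL-4Ra-/- and 6917 CPM in WT. Most of that sum came from Igha, Igkc and Jchain, which 33.8%, 25% and 21.3% of the sorted WT single cells also held at 10 or more reads. Of these lists, Flt3 and Alpi were at 0 in IL-4RaY709F, Xcr1 and Batf3 in IL-4Ra-/-, and Mzb1, Flt3, Zbtb46, Batf3, Krt20, Fabp2 and Alpi in WT. Of 16 proliferation genes, 10 were testable in IL-4Ra-/- over WT, and Top2a, Mcm5, Mcm6, Mcm7, Uhrf1 and Kif11 passed higher, at log2 ratios of 1.12 to 2.15. The same 6 with Mki67 and Mcm2 passed lower in IL-4RaY709F over IL-4Ra-/-, at -2.09 to -1.25, and none passed in IL-4RaY709F over WT, where 6 were testable. Mki67 stood at -0.98 for IL-4RaY709F over WT (-1.38 to -0.59), and at 0.89 for IL-4Ra-/- over WT, with Mcm2 at 0.87. Under total reads, the shifts of -0.11 and 0.13 take these ratios past the size rule. Of all genes tested, 2.43% passed higher in IL-4Ra-/- over WT, 3.50% lower in IL-4RaY709F over IL-4Ra-/- and 0.771% lower in IL-4RaY709F over WT. The part of the marker and proliferation transcripts in the ratios of the PIM and BCL2 family genes was not tested.

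Among the genes upstream of PIM transcription, Il4ra and Il2ra passed the size rule in both comparisons with WT, in opposite directions. Of 21 receptor, JAK and STAT genes, 18 were testable, and 3 passed higher in IL-4RaY709F over WT: Il4ra, Il2ra, the alpha chain of the IL-2 receptor (log2 ratio 1.59, 1.23 to 1.97), and Jak1, the kinase bound to the IL-4 receptor chain (1.15, 1.08 to 1.22). In IL-4Ra-/- over WT 2 passed lower, Il4ra (-1.36, -1.54 to -1.17) and Il2ra (-1.25, -1.84 to -0.67). Between the mutants 5 of 18 passed higher in IL-4RaY709F, those 3 with Jak2 (1.02, 0.93 to 1.11) and Stat5a (1.46, 1.29 to 1.63). Il4ra is itself the gene altered in both mutants, so nothing is read from its part in these counts. Stat6, the factor that the IL-4 receptor activates directly, had log2 ratios of -0.17 for IL-4RaY709F over WT and -0.41 for IL-4Ra-/- over WT. The list's median was 0.33 for IL-4RaY709F over WT and -0.42 for IL-4Ra-/- over WT, beside 0.02 and -0.08 for all genes tested. Of all genes tested, 1.68% passed higher in IL-4RaY709F over WT, 1.30% lower in IL-4Ra-/- over WT and 4.62% higher in IL-4RaY709F over IL-4Ra-/-.

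Of 9 feedback genes of JAK and STAT signalling, 8 were testable. Socs1 and Socs3, inhibitors induced by STAT factors, passed higher in IL-4RaY709F over WT (log2 1.42 and 1.18) and lower in IL-4Ra-/- over WT (-2.00 and -1.88). Cish, a STAT5 target, passed between the mutants (1.54, 1.42 to 1.66) and stood at 0.66 for IL-4RaY709F over WT and at -0.88 for IL-4Ra-/- over WT. The list's median was 0.44 for IL-4RaY709F over WT and -0.35 for IL-4Ra-/- over WT, beside 0.02 and -0.08 for all genes tested. The shares of all genes past the size rule were those given beside the receptor, JAK and STAT genes.

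The remaining death and survival lists stand beside the shares of all genes past the size rule. These shares were 2.45% for IL-4RaY709F over WT, 3.73% for IL-4Ra-/- over WT and 8.12% between the mutants. The other 5 anti-apoptotic family genes (Bcl2l2, Bcl2l10, Bcl2a1a, Bcl2a1b and Bcl2a1d) had too few reads to be tested in any comparison. Of 9 other pro-apoptotic family genes, 2 were testable, Pmaip1, the BH3-only gene of NOXA, and Bnip3l, a mitophagy receptor gene, and neither passed in any comparison. Bnip3l had log2 ratios of -0.03 for IL-4RaY709F over WT (-0.41 to 0.36) and 0.49 for IL-4Ra-/- over WT (0.15 to 0.84), and Pmaip1 had -0.10 for IL-4RaY709F over WT (-0.49 to 0.29) and 0.33 for IL-4Ra-/- over WT (-0.02 to 0.68). Of 16 caspase cascade genes, none passed against WT (11 testable for IL-4RaY709F and 9 for IL-4Ra-/-), and 2 of 11 passed higher in IL-4RaY709F over IL-4Ra-/-: Fas, the death receptor gene (1.5, 0.88 to 2.14), and Cycs, the gene of cytochrome c (1.18, 0.62 to 1.76).

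Of 16 genes of PIM substrates and growth partners, 11 were testable, none passed against WT, and Myc, whose protein PIM kinases stabilise, passed higher in IL-4RaY709F over IL-4Ra-/- (1.58, 1.03 to 2.16). Bad, the substrate most tied to survival, had 43 reads in IL-4RaY709F, 39 in IL-4Ra-/- and 31 in WT and was below the read limit. Of 13 p53 and FOXO targets of cell death, Bbc3 among them, none passed against WT (11 testable in each), and 1 of 9 passed between the mutants, Ddit3, a gene of the stress response (1.06, 0.55 to 1.57). Under total reads the ratios of Jak2, Cycs and Ddit3 between the mutants fall below 2-fold by the shift of 0.24. Sesn1, of the p53 and FOXO list, stood at -0.95 for IL-4RaY709F over WT (-1.22 to -0.69). The shift of -0.11 under total reads takes that ratio past the size rule.

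By the distance between their 2 log2 ratios to WT, the genes most like Pim2 among 2623 genes with at least 200 reads in a library were Serpina3f (distance 0.14), Batf (0.33), Serpina3g (0.43), Il2ra (0.49), Prss34 (0.60) and Socs1 (0.64). Serpina3f, a serine protease inhibitor gene, had 242 CPM in IL-4RaY709F, 19.3 CPM in IL-4Ra-/- and 57.8 CPM in WT. Batf, an AP-1 family factor, had 456 CPM in IL-4RaY709F, 51.5 CPM in IL-4Ra-/- and 150.5 CPM in WT. Likeness here rests on 3 libraries, and reads shared among the near-identical Serpina3 genes could not be told apart.

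Of the 81 single cells, 80 had at least 10000 gene reads and were kept, with 163596 to 2210211 reads (median 1209300), and the other had 1225. Detection in a cell meant 10 or more reads. Pim1 was detected in 65 of 80 cells (81.3%, exact interval 71% to 89.1%), Mcl1 in 52 (65%, 53.5% to 75.3%), Bcl2 in 33 (41.3%, 30.4% to 52.8%), Bcl2l1 in 26 (32.5%, 22.4% to 43.9%), Bax in 20 (25%, 16% to 35.9%) and Pim2 in 16 (20.0%, 11.9% to 30.4%). Pim3 and Bcl2l11 were detected in 7 cells each (8.75%, 3.59% to 17.2%), Bak1 in 3 (3.75%, 0.780% to 10.6%) and Bbc3 in none, which allows a share of up to 4.51% of cells with 10 reads and sets no limit on the cells that express the gene. At 1 or more reads the counts became 79 for Pim1, 69 for Mcl1, 55 for Bcl2, 45 for Bcl2l1, 30 for Bax, 28 for Pim2, 16 for Bcl2l11, 12 for Pim3, 10 for Bak1 and 1 for Bbc3.

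Pim1 was spread over the cells and Pim2 over few of them. Pim1 levels ran from 0 to 2866 CPM with a median of 376 CPM, and the 5 cells with most Pim1 reads held 24.8% of all its reads. Pim2 ran from 0 to 644 CPM with a median of 0, and its leading 5 cells held 74.1% of its reads, the first alone 22.9%. Bbc3 (6 reads) aside, this share was larger for Bcl2l11 (95.6%), Pim3 (92.4%) and Bak1 (88.2%). It was smaller for Bax (51.8%), Bcl2l1 (47.2%), Bcl2 (41.3%) and Mcl1 (34.4%). Pim1 had 46293 reads over the cells and Pim2 3871, and the part of level in their spread was not tested. Within the 16 cells that had it, Pim2 ranged upward from 9.53 CPM with a median of 81.6 CPM. With no read minimum, Pim1 was the highest PIM kinase per kb in 74 of 80 cells, and the cell with the highest Pim2 CPM had 0 CPM of Pim1. No PIM kinase was detected in 11 cells, 1 in 52, 2 in 15 and all 3 in 2.

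Mcl1 ran from 0 to 769.5 CPM with a median of 55.4 CPM, and Bcl2l11, the gene of its partner BIM, was 0 in 64 cells, with 69.3% of its reads in 1 cell. Per kb and with no read minimum, Mcl1 stood above Bcl2l11 in 68 of 80 cells and was the highest of the 3 anti-apoptotic genes in 40. Mcl1 had at least 1 read in 69 cells, so the first count mostly restates the cells with any Mcl1 read. Bcl2 and Bcl2l1 reached higher peaks than Mcl1, 1621 and 1571 CPM, on medians of 4.11 and 0.781 CPM. Of these 3 genes, none was detected in 14 cells, 1 in 30, 2 in 27 and all in 9. Of the 4 pro-apoptotic genes none was detected in 53 cells, 1 in 24 and 2 in 3. A cell had a median of 3 of the 10 genes, and the range was 0 to 7.

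**Figure D4:**
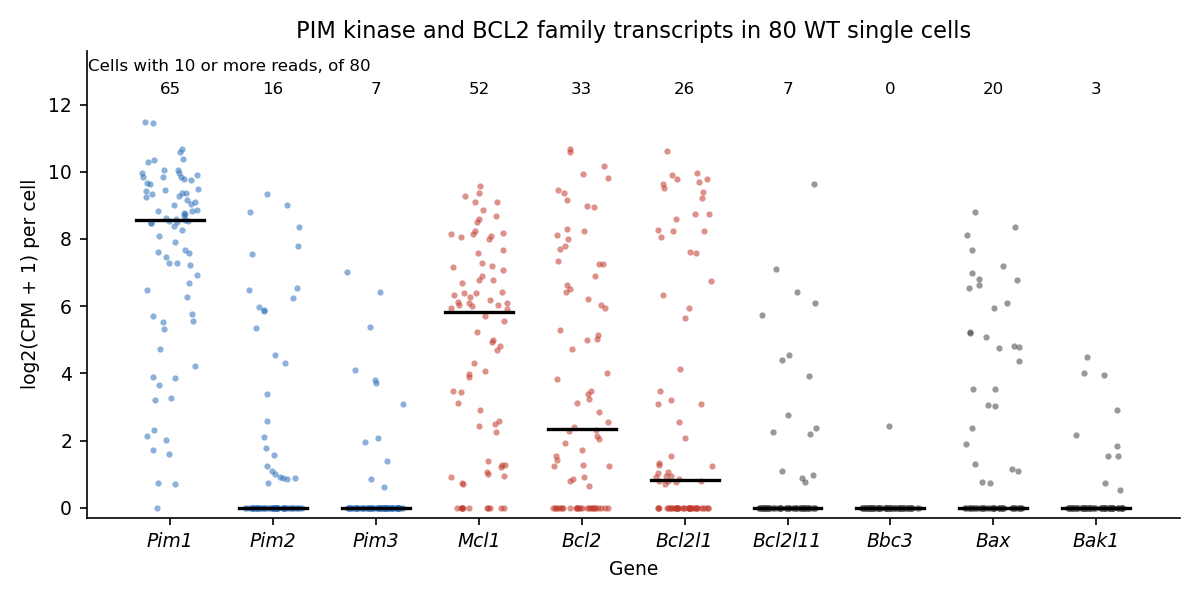
Each point is 1 of 80 WT single cells, with the level of each of the 10 genes in log2(CPM + 1) a black line at the median, and the number of cells with 10 or more reads printed above each gene. Pim1 (65 cells) and Mcl1 (52 cells) fill most cells, while Pim2 (16 cells) and the genes detected in fewer cells lie at 0 in most.

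Across the 80 cells the 45 pairs among the 10 genes had Spearman correlations of -0.14 to 0.28 (median 0.03), values too near 0 in such sparse counts to be a finding. The cells differ in depth, and Pim3 (0.38) and Bak1 (0.30) correlated with the total gene reads of the cell. Pim2 was detected together with Pim1 in 13 of its 16 cells and with Batf in 15, while Batf was detected in 51 of 80 cells. The correlation of Pim2 with Batf was 0.18 and with Il4ra 0.13, and that of Pim1 with Cish was 0.40 (58 cells with both). Among 3626 genes detected in at least 25% of cells, the genes most correlated with Pim2 were Hscb (0.45), Tmco1 (0.39), Spen (0.39), Eif4g1 (0.36) and Acaa2 (0.36), with 97.5% of genes at or below 0.25. Of the 6 genes nearest to Pim2 in the bulk libraries, Serpina3f, Batf and Serpina3g were detected in enough cells to be compared, and none of these 3 was among them.

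The single cells and the WT bulk library, from different allergy models and preparations, ranked the 10 genes differently. Over 5564 genes with at least 50 reads in both, the log2 ratio of the summed cells over WT bulk had a median of -0.40, with quartiles of -1.45 and 0.45. Bcl2l1 stood at 2.42 and Bcl2 at 0.82, while Bax was at -0.14, Pim2 at -0.40, Pim1 at -0.83, Bcl2l11 at -1.77 and Mcl1 at -2.42. Pim3 at -5.08 and Bak1 at -5.59 were far down, below all but 1.02% and 0.647% of genes. Bbc3 had 6 reads in all cells together, and its log2 ratio was -8.64. Across genes, which are not independent replicates, this ratio ran against the GC content of the transcript (Spearman -0.35), and the median was 0.12 in the 1113 genes with the lowest GC and -1.40 in the 1113 with the highest. GC was 61.9% for Pim3, 65.2% for Bbc3 and 57.1% for Bak1, all above the 54.9% at which that last group begins. Bax at 63.5%, Bcl2l1 at 55.9% and Pim1 at 56% lay above it as well. The part of GC content in the low detection of Pim3, Bbc3 and Bak1 was not tested.

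**Figure D5:**
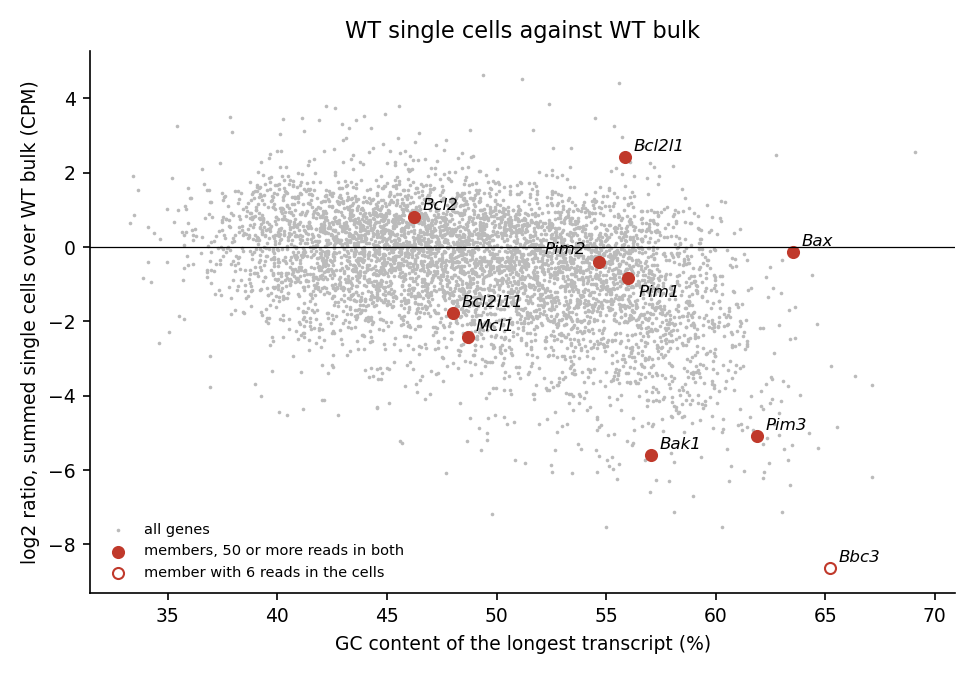
Each point is a gene, with the GC content of its longest transcript (%) against the log2 ratio of summed WT single cells over WT bulk (CPM). Pim3 (-5.08), Bak1 (-5.59) and Bbc3 (-8.64, open symbol, 6 reads in the cells) lie far below the other 7 genes marked.

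Few reads were counted for genes that overlap these 10. Pim1 shares 488 exon bases with the antisense Gm26885, which had 3 reads in IL-4RaY709F, 5 in IL-4Ra-/- and 7 in WT. Bcl2, Bax and Bak1 overlap partners with at most 4 reads in any library. Bax shares 192 exon bases with Gm45808 on the same strand, where a strand setting would not separate reads. Bak1 shares 177 and 437 exon bases with entries of Ggnbp1 on the opposite strand. No label gives the strand setting or the handling of reads that fall in more than 1 gene. Reads in such overlaps therefore could not be told apart, and reads left out of both genes could not be seen.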

How the data were processed

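Bulk RNA-seq of 3 MMC9 libraries and of 81 single WT cells was used. Reads were aligned with HISAT and counted with featureCounts of Subread 2.0.0, per the submitters' processing notes, which name GRCm38 and mm9 without their roles. The deposited tables hold raw counts of reads in genes, as whole numbers that the authors did not normalize. Of 55471 gene IDs, 55144 were in GENCODE M21 (GRCm38) and 54814 of them (99.4%) had the same coordinates, so coordinates are GRCm38. Counts were scaled by TMM (edgeR 4.0.16). Ratios of 2 libraries carry exact conditional binomial (Clopper-Pearson) 95% intervals, and no p-value was computed, with 1 library per genotype. The size rule asked for 50 reads in the larger library, a 2-fold ratio and an interval without 1, and a gene at 0 was set to a floor of 3 reads. Intervals cover the counting error of reads only and treat reads as independent. Reads carry no stated molecular identifiers, so reads copied from 1 molecule could not be told apart and the intervals may be too narrow. Cells with at least 10000 gene reads were kept, and no doublet caller was run on the singly sorted cells. Correlations used log2(CPM + 1). Bulk and cells were compared over genes with at least 50 reads in both.

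Named genes were the 10 genes, Il4ra, Batf, genes of the pathway lists past the rule, and the genes nearest to Pim2 (6 in bulk, 5 in cells). Other list genes (Stat6, Bad, Pmaip1, Bnip3l, Sesn1, Iglc1, Il7r, Il17rb and marker genes at 0 or shared with single cells) were added after their values were seen. The 10 genes, the lists and the motifs were chosen with earlier results of these data known. Genes of the marker lists were only counted and summed otherwise. Of the other lists of cell type markers, T cell, ILC2, basophil and neutrophil or eosinophil markers (in that order) summed to 205, 214, 9182 and 36.5 CPM in IL-4RaY709F, 284, 62.9, 7299 and 34.2 CPM in IL-4Ra-/- and 163, 108, 7843 and 48.6 CPM in WT. All 3 ILC2 markers testable between the mutants, Il7r, Il17rb and Il2ra, passed higher in IL-4RaY709F, against 4.62% of all genes. Il2ra alone gave 107 CPM of the ILC2 sum in IL-4RaY709F. Alternatives were other scalings (DESeq2 1.42.0 size factors, upper quartile, total reads), read and fold limits, cell filters and shares without length.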

Additional observations from a re-analysis of the deposited data

How the results depend on the processing

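Pim2 kept its call and its direction under total reads, DESeq2 and upper-quartile scaling in all 3 comparisons. In IL-4Ra-/- over WT a limit of 200 reads left 0 of the 10 genes past the rule, because Pim2 had fewer reads than that. In IL-4Ra-/- over WT a 1.5-fold limit gave 4 of the 10 (Pim1, Pim2, Pim3 and Bbc3). In IL-4RaY709F over IL-4Ra-/-, total reads and a 3-fold limit each left 1, Pim2. Over all genes, limits of 20 reads, 200 reads, no minimum, 1.5-fold and 3-fold gave 308, 51, 510, 579 and 42 calls for IL-4RaY709F over WT, 587, 42, 897, 960 and 72 for IL-4Ra-/- over WT, and 981, 174, 1427, 1451 and 176 between the mutants; looser limits admit more genes by construction. Without length, Pim1 was 72% of PIM kinase reads in IL-4RaY709F, 83.2% in IL-4Ra-/- and 77.9% in WT, and Pim3 was 13.9% in IL-4RaY709F, 14.2% in IL-4Ra-/- and 17.2% in WT. In cells thinned to 150000 reads each, Pim1 had at least 1 read in 92.5% of cells and Bcl2 in 53.8%. No paired analysis was possible because each genotype has 1 library, and for the same reason no library could be left out. Genes near 50 reads, such as Bbc3, carry wide intervals, and no interval covers differences between pools of mice.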
